A study of Mus musculus with 12 samples.

Results

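Ligands through which natural killer (NK) cells recognise a damaged or transformed cell were followed in Myc-CaP cells, a mouse prostate cancer line that overexpresses Myc. The genes were chosen by symbol, as ligands of NK cell receptors, some of which can rise with DNA damage. For Clec2d, the ligand gene of an inhibitory receptor, no direction was assumed. All 7 of 7 (Ulbp1, Raet1d, Raet1e, H60b, H60c, Pvr and Clec2d) had a row among the 55216 rows of the count table. Poly(A) RNA was sequenced 48 h after treatment in 12 libraries, which form 6 groups of 2. Ctrl cells received no agent, IFN200 and IFN2000 cells received interferon γ (IFNγ) at 200 or 2000 pg (the labels give no volume), Oxali cells received oxaliplatin at 2 µM, and Combo200 and Combo2000 cells received oxaliplatin at 2 µM together with IFNγ at 200 or 2000 pg. Oxaliplatin is a platinum drug that crosslinks DNA. All groups share the line, which was derived from a male FVB/NJ background and was grown without immune cells, so the values are transcripts of cultured tumour cells and not surface protein. The labels do not say whether the libraries of a group came from separate cultures, and p-values then measure the spread between these libraries, which may be technical.

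NK cells weigh activating against inhibitory signals. NKG2D is an activating receptor, and its mouse ligands are the MULT1 protein encoded by Ulbp1, the RAE-1 proteins encoded by the Raet1 genes and the H60 proteins. They are MHC class I-like molecules that healthy cells mostly lack and that can appear after DNA damage or transformation. Pvr encodes CD155, which is bound by the activating receptor CD226 and by TIGIT and CD96, and Clec2d encodes Clr-b, the ligand of the inhibitory receptor NKR-P1B.

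Titles were used to set the groups, since titles and agent labels conflict in the 6 libraries given 1 agent. IFN200 by title is oxaliplatin by agent, IFN2000 by title is IFNγ at 200 pg by agent, and Oxali by title is IFNγ at 2000 pg by agent. Cdkn1a, a p53 target and cell cycle inhibitor, was at 48.1 to 53.6 CPM (a gene's count scaled to the size of its library) in the 6 libraries titled with oxaliplatin and at 24.0 to 30.3 CPM in the 6 without, and Mdm2, another p53 target, was at 104.2 to 114.5 against 60.4 to 70.7 CPM. Library totals ran from 18749975 to 25931516 counts, at which 3 counts, the limit that a count of 0 allows, equal 0.111 to 0.167 CPM (counting error only). Of the epithelial markers, the keratin gene Krt8 was counted 353 to 628 times, while Krt18 and Cdh1 had at most 5 and 6 reads and Epcam had none. NK cell markers were absent but for 1 read of Klrk1. IFN2000 replicate 2 held reads of T cell genes (2.57 CPM over 5 genes, against at most 0.174 CPM in any other library), and IFN200 replicate 1 held reads of the heart muscle genes Myh6 (28) and Actc1 (63). Leaving out both libraries together, an alternative chosen after seeing the data, changed no count of ligand genes called.

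How far the reads of these genes can be told apart bears on every value below, so their sequence is described first. On the mouse build GRCm38, in GENCODE release M21, 5 of the 7 genes lie on chromosome 10. Ulbp1 spans chr10:7440362-7473638 on the minus strand and H60c chr10:3256208-3267771 on the minus strand. On the plus strand, Raet1e (chr10:22158569-22374139) overlaps both H60b (chr10:22158586-22288849) and Raet1d (chr10:22360552-22374139), which do not overlap each other. Pvr lies at chr7:19903578-19921160 on the minus strand and Clec2d at chr6:129180615-129186534 on the plus strand. Raet1d and Raet1e share 363 exon bases, which are 25.2% of the exon bases of Raet1d and 16.8% of those of Raet1e, and H60b and Raet1e share 133 exon bases, 11% of H60b and 6.16% of Raet1e.

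The coding sequences of Raet1d and Raet1e are the ones that reads can confuse. Of 744 aligned coding bases 713 were identical (95.8%), with an identical run of up to 165 bases. Their first 140 coding bases are shown because they hold both a long stretch that is the same in both genes and the first bases that differ, which are in capitals, and the rest is in lower case. The differences are A87G, C128A and C136T, with the base of Raet1d first and positions counted from 1 at the start codon.
Raet1d: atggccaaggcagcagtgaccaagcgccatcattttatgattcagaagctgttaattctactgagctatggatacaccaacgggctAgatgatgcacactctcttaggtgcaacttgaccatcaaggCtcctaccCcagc
Raet1e: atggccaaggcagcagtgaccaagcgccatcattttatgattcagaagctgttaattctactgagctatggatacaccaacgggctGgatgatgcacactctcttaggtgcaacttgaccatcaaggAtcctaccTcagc

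Across whole transcripts, 53.8% of all 50-base windows of Raet1d and 38.6% of those of Raet1e were also found in the other gene, and at 100 bases the shares were 32.7% and 14%. For H60b the shares at 50 and 100 bases were 8.57% and 3.66% (all with Raet1e), and for H60c 5.89% and 3.72%. Ulbp1 shared 5.08% of its 50-base windows with other genes, Clec2d 1.98% and Pvr 0%, and none of the 3 shared a window of 100 bases. The read length is not given in the sources used here. The counts of Raet1d and Raet1e are therefore uncertain as to the gene, while the transcripts searched for Pvr, Ulbp1 and Clec2d share little. The transcripts searched were 1093 bases for Ulbp1 and 2905 for Pvr. All annotated exons of these 2 genes hold 6726 and 6122 bases, and the rest was not searched. The reference is that of C57BL/6J mice, and FVB/NJ sequence was not examined.

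**Figure D1:**
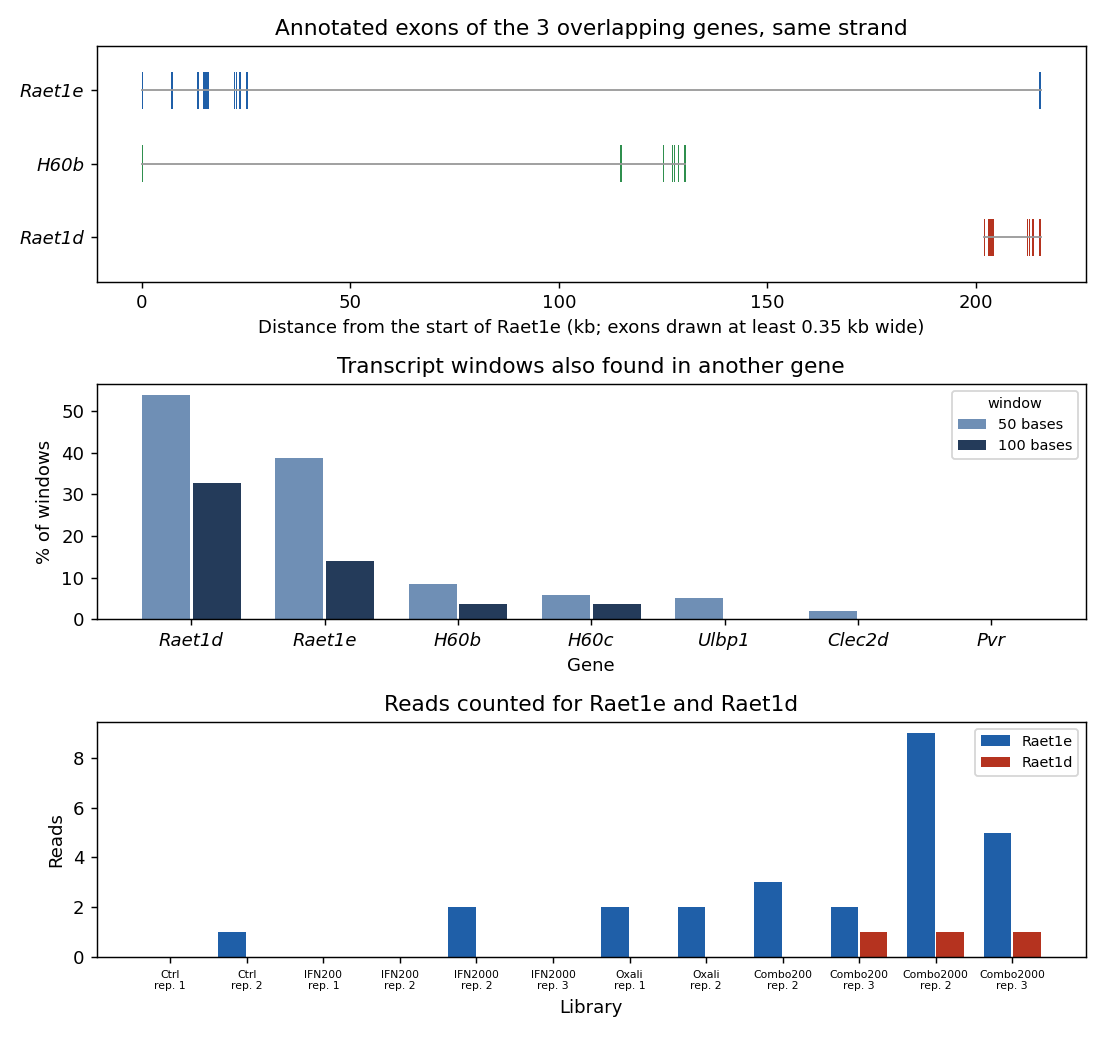
Top, annotated exons of Raet1e, H60b and Raet1d as distance from the start of Raet1e in kb. Middle, percent of 50-base and 100-base transcript windows of each gene that occur in another gene, highest for Raet1d (53.8% at 50 bases) and 0% for Pvr. Bottom, reads counted for Raet1e and Raet1d in each library, with the most reads of Raet1e (9 and 5) in Combo2000.

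In untreated cells Pvr, Ulbp1 and H60b were well above the other ligand genes. Per kb of exon, Pvr stood at 5.15 ± 0.254 CPM (SD, n = 2), Ulbp1 at 5.10 ± 0.155 CPM and H60b at 2.47 ± 0.132 CPM. Far below them were H60c at 0.204 ± 0.0931 CPM per kb, Clec2d at 0.179 ± 0.136 and Raet1e at 0.0117 ± 0.0166, and Raet1d had no read. The library values of Pvr and Ulbp1 overlapped, as did those of H60c and Clec2d, while H60b lay apart from both pairs. Of the 13043 tested genes with a length, 45.6% were lower than Pvr in Ctrl, 45.4% lower than Ulbp1, 33.3% lower than H60b, 9.32% lower than H60c and 8.45% lower than Clec2d.

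Among the 5 genes for ligands of NKG2D, Ulbp1 made up 56.7 to 68.1% of the summed level per kb in the 12 libraries and H60b made up 30.2 to 38.2%. The sum itself was lowest in Combo2000 replicate 3 (6.59 CPM per kb) and highest in Oxali replicate 2 (9.42 CPM per kb). These levels depend on the length used. The union of all annotated exons is 6726 bases for Ulbp1, 6122 for Pvr and 1213 for H60b, while the single transcripts compared above are 1093, 2905 and 1029 bases. By those transcript lengths, an alternative chosen after seeing the data, Ulbp1 stood at 31.4 ± 0.951 CPM per kb in Ctrl, Pvr at 10.8 ± 0.535 and H60b at 2.92 ± 0.156 (SD, n = 2), so Ulbp1 was above Pvr. The share of Ulbp1 was then 87.1 to 91.7% and that of H60b 7.90 to 11.3%. By either length Ulbp1 had the largest share and H60b the next in every library.

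**Figure D2:**
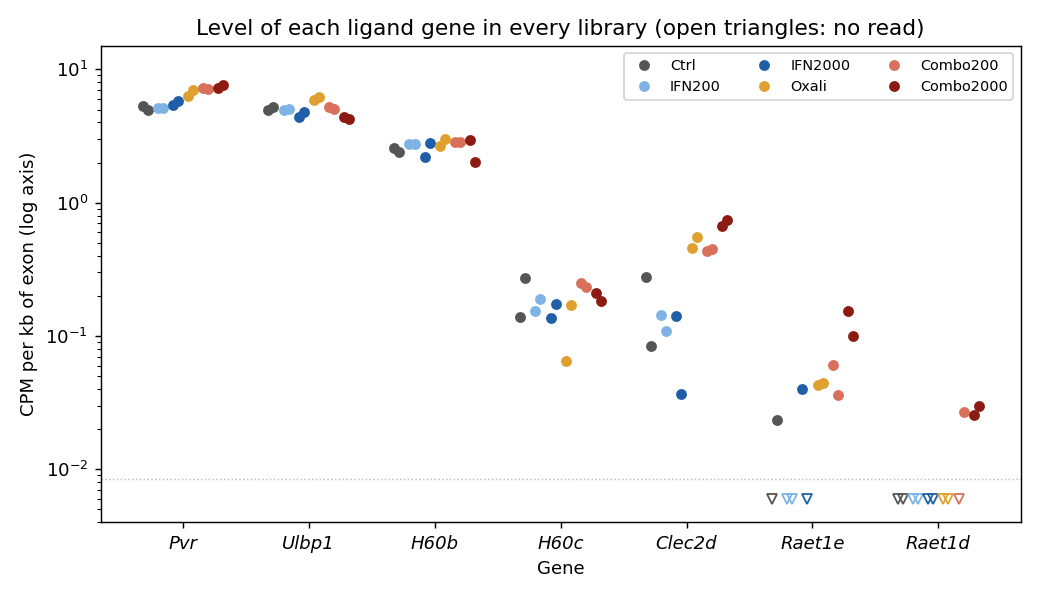
Level of each ligand gene in CPM per kb of exon (log axis), 1 point per library, coloured by group, with open triangles for libraries without a read. Pvr, Ulbp1 and H60b lie above 2 CPM per kb in all 12 libraries, and Raet1d has reads in 3 libraries.

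Differences in counts come from 1 quasi-likelihood model, fitted by edgeR to all 12 libraries. Called genes are those whose p, adjusted by Benjamini and Hochberg over the 13177 genes past a filter on low counts, was under 0.05. Of the 7 ligand genes 5 passed the filter, and Raet1d and Raet1e did not and are given as reads. The share of all tested genes called is given beside each count, because oxaliplatin moved most genes of these cells. Values in CPM below are levels scaled by TMM (trimmed mean of M values), and log2 fold changes are differences.

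Oxaliplatin alone, against Ctrl, raised Pvr and Ulbp1, and H60b and H60c were not called. Clec2d was called higher too, but it had few reads and entered the test only through the groups with oxaliplatin. Its call is no support apart from its reads, which are given below. The 3 calls among 5 tested ligand genes stand beside 67.6% of all tested genes called in either direction, 34.8% higher and 32.8% lower. This count is near the share of all genes, so it is no result about the ligands as a group.

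Pvr, the ligand of CD226, TIGIT and CD96, was at 32.6 and 30.4 CPM in Ctrl and at 38.6 and 43.0 CPM in Oxali. It was at 31.3 CPM in both IFN200 libraries and at 33.3 and 35.7 CPM in IFN2000. With both agents it was at 44.2 and 43.9 CPM in Combo200 and at 44.3 and 47.1 CPM in Combo2000. All 6 libraries with oxaliplatin were above all 6 without it. How many of all tested genes part in this way was not counted, and 67.6% of them were called in Oxali against Ctrl. The separation is therefore no trait shown to be particular to Pvr. The fold change of Oxali against Ctrl was 1.30 (log2 0.37, SE 0.06, edgeR adjusted p = 3.21e-05). Combo200 and Combo2000 were 1.40 and 1.45 times Ctrl (log2 0.49 and 0.54, edgeR adjusted p = 8.44e-07 and 1.86e-07).

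When oxaliplatin was added to IFNγ, Pvr also rose, by a log2 difference of 0.49 at 200 pg (SE 0.06, edgeR adjusted p = 4.18e-07) and of 0.41 at 2000 pg (SE 0.06, adjusted p = 3.69e-06). IFNγ without oxaliplatin gave no call of Pvr, with log2 differences from Ctrl of -0.01 (95% interval -0.15 to 0.13) at 200 pg and 0.13 (-0.00357 to 0.27) at 2000 pg. IFNγ added to oxaliplatin gave 0.11 (-0.01 to 0.23) and 0.16 (0.04 to 0.28), with edgeR adjusted p = 0.512 and 0.145. Each call of Pvr was kept under every alternative and with any 1 library left out.

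Ulbp1, the gene of the NKG2D ligand MULT1, followed another course. It was at 33.5 and 35.0 CPM in Ctrl, at 39.8 and 41.8 CPM in Oxali, at 35.2 and 34.2 CPM in Combo200 and at 29.6 and 28.6 CPM in Combo2000. The IFN200 libraries were at 33.2 and 33.8 CPM and the IFN2000 libraries at 29.6 and 32.0 CPM. Both Oxali libraries were higher than all others, and the Combo2000 libraries were among the 3 lowest. Oxali was 1.19 times Ctrl (log2 0.25, SE 0.06, edgeR adjusted p = 0.000689), whereas Combo2000 was 0.849 times Ctrl (log2 -0.24, SE 0.06, adjusted p = 0.00133), so that Ulbp1 was raised by oxaliplatin alone and was below untreated cells when the higher dose of IFNγ was present too. Combo200 did not differ by the test from Ctrl (log2 0.02, 95% interval -0.10 to 0.14). Oxaliplatin added to IFNγ gave no call of Ulbp1. The log2 difference was 0.05 at 200 pg (95% interval -0.07 to 0.17, edgeR adjusted p = 0.432). At 2000 pg it was -0.08 (-0.20 to 0.04, adjusted p = 0.223), so Combo2000 did not differ by the test from IFN2000. With the length and GC correction, an alternative, Combo2000 was called lower than IFN2000 (-0.17, edgeR adjusted p = 0.00745).

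Set against Oxali, Ulbp1 was lower in Combo200 (log2 -0.23, SE 0.05, edgeR adjusted p = 0.0263) and in Combo2000 (log2 -0.49, SE 0.06, adjusted p = 4.29e-06). It was the only ligand gene called in either comparison, in which 1.83% and 4.36% of all tested genes were called (1.58% and 3.37% higher, 0.25% and 0.987% lower). Combo2000 was also lower than Combo200 (log2 -0.25, SE 0.06, edgeR adjusted p = 0.0207, 1 ligand gene called beside 1.37% of all genes, 1.21% higher and 0.167% lower). Of these calls that of Combo2000 against Oxali was kept under every alternative, with log2 values of -0.52 to -0.45. The calls of Combo200 against Oxali and of Combo2000 against Combo200 were lost with DESeq2 (adjusted p = 0.392 and 0.416) and when either library of Combo200 was left out, the first also without either Oxali library and the second also without either Combo2000 library.

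The interaction asks whether the log2 step made by IFNγ differed with and without oxaliplatin. For Ulbp1 at 2000 pg the step was -0.16 without oxaliplatin (Ctrl to IFN2000, edgeR adjusted p = 0.0724, not called) and -0.49 with it, and the difference of the 2 steps was -0.33 (SE 0.08, edgeR adjusted p = 0.0325). It was the only ligand gene called, beside 2.72% of all tested genes, 2.12% higher and 0.6% lower. This call was not kept with DESeq2 (-0.34, adjusted p = 0.190), when only the 4 groups entered the fit (-0.33, adjusted p = 0.068), or without any 1 library of Ctrl, Oxali, Combo200 or Combo2000 (adjusted p from 0.0568 to 0.178). At 200 pg the interaction was -0.20 (95% interval -0.37 to -0.03, adjusted p = 0.395) and edgeR called no ligand gene (0.698% of all genes called, 0.562% higher and 0.137% lower, 1 of 5 ligand genes at an unadjusted p under 0.05, 0 by DESeq2).

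**Figure D3:**
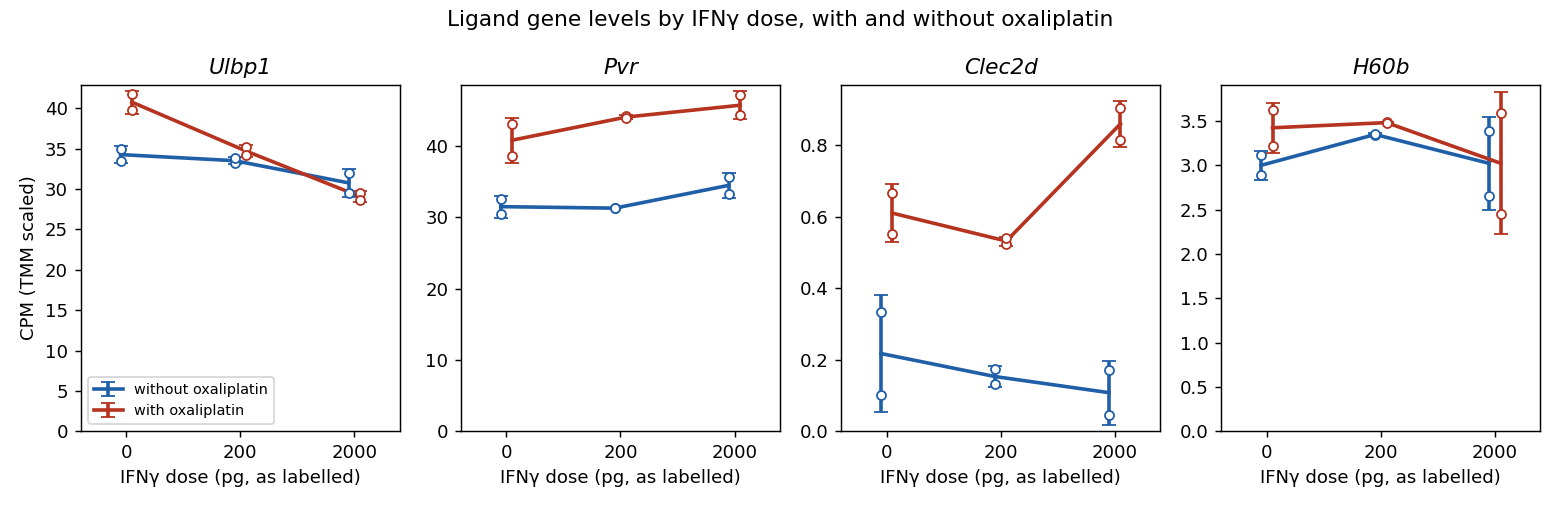
Level in CPM (axis from 0) of Ulbp1, Pvr, Clec2d and H60b against the labelled dose of IFNγ, without (blue) and with (red) oxaliplatin. Open points are libraries, lines join group means and bars are SD (n = 2). Ulbp1 with oxaliplatin goes from 40.8 to 29.1 CPM over the doses, and Pvr and Clec2d with oxaliplatin lie above the values without it.

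IFNγ alone changed no ligand gene in the test. In IFN200 against Ctrl edgeR called 0 of 5 (0.114% of all genes called, all higher, 0 ligand genes at an unadjusted p under 0.05, 0 by DESeq2). In IFN2000 against Ctrl it called 0 of 5 (16.9% of all genes called, 8.39% higher and 8.47% lower, 1 ligand gene, Ulbp1, at an unadjusted p under 0.05, 0 by DESeq2). In IFN2000 against IFN200 it called 0 of 5 (22.3% of all genes called, 11.3% higher and 11% lower, 2 ligand genes, Pvr and Ulbp1, at an unadjusted p under 0.05, 0 by DESeq2). Without IFN2000 replicate 3, Ulbp1 was called lower in IFN2000 than in Ctrl (log2 -0.20, edgeR adjusted p = 0.0452).

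Clec2d, the gene of the inhibitory ligand Clr-b, had few reads, and they were mostly in libraries with oxaliplatin. Ctrl libraries had 6 and 2 reads, IFN200 libraries 4 and 3, and IFN2000 libraries 4 and 1. Oxali libraries had 12 and 14 reads, as did those of Combo200, and Combo2000 libraries had 22 and 21. The 2 sets of 6 libraries did not overlap, in reads or in CPM (0.0446 to 0.334 without oxaliplatin, 0.523 to 0.905 with it). As for Pvr, the share of all tested genes that part in this way was not counted. Summed over libraries there were 95 reads with oxaliplatin and 20 without, a ratio of 4.33 after scaling (exact 95% interval 2.65 to 7.41, counting error only).

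Without oxaliplatin Clec2d had at most 6 reads in any library, under the filter's minimum count of 10. It therefore entered the test only through the groups with oxaliplatin, and its calls are no support apart from the reads above. Oxali was 2.82 times Ctrl for Clec2d (log2 1.50, SE 0.53, edgeR adjusted p = 0.0168), and Combo2000 was 3.96 times Ctrl (log2 1.99, SE 0.48, adjusted p = 0.00105). Combo200 was 2.47 times Ctrl (log2 1.30, SE 0.53, adjusted p = 0.0350). Against IFNγ alone the log2 differences were 1.76 at 200 pg (SE 0.54, edgeR adjusted p = 0.00685) and 2.91 at 2000 pg (SE 0.52, adjusted p = 5.05e-05). The Combo2000 libraries were the highest, but against Oxali the log2 difference was 0.49 (95% interval -0.27 to 1.24) and was not called.

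Some of these calls rest on single libraries or on the tool. The call of Combo200 against IFN200 was lost with DESeq2 (adjusted p = 0.0853) and without IFN200 replicate 2 (edgeR adjusted p = 0.0679). Without Ctrl replicate 2, which had 2 reads, Clec2d was not called in Oxali (log2 0.86, edgeR adjusted p = 0.240), in Combo200 (0.66, adjusted p = 0.370) or in Combo2000 (1.35, adjusted p = 0.0520) against Ctrl. Without Oxali replicate 2 it was not called in Oxali against Ctrl (1.35, adjusted p = 0.101), and DESeq2 did not call Oxali or Combo200 against Ctrl (adjusted p = 0.146 and 0.223). The call of Combo200 against Ctrl was kept in 3 of the 12 fits that left out 1 library and was lost with no filter on low counts (adjusted p = 0.0502). Without Ctrl replicate 1 the 3 differences from Ctrl were larger, 2.52, 2.32 and 3.01. The call of Combo2000 against IFN2000 was kept throughout.

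In Combo200 and Combo2000 against Ctrl, 2 and 3 of the 5 tested ligand genes were called (Pvr and Clec2d higher in both, Ulbp1 lower in Combo2000), beside 68.7% and 69.2% of all tested genes (35.6% and 35.7% higher, 33.1% and 33.5% lower). In Combo200 against IFN200 and Combo2000 against IFN2000, 2 of 5 were called in each (Pvr and Clec2d, both higher), beside 69.9% and 72.3% of all tested genes (36.5% and 38.5% higher, 33.5% and 33.8% lower). These counts are near or under the share of all genes. The comparisons with Ctrl share the Ctrl libraries, and those with Oxali share the Oxali libraries.

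Clec2d is transcribed in leukocytes as well, and marker genes of other cell types were read in the same libraries. The summed level of 4 macrophage markers was 0.530 to 1.27 CPM without oxaliplatin and 1.53 to 2.18 CPM with it, with Adgre1 at 0 in all libraries and Csf1r at 0 without oxaliplatin and 8 to 19 reads with it. The 3 fibroblast markers summed to 9.95 to 17.4 CPM without and 20.9 to 25.6 CPM with oxaliplatin, nearly all of it Pdgfra. With oxaliplatin, markers of T cells summed to at most 0.174 CPM, of B cells to at most 0.0477 CPM and of endothelium to at most 0.172 CPM, and NK cell markers had no read. Heart muscle markers ran from 0.835 to 6.12 CPM without and from 2.97 to 5.94 CPM with it, and leaving out IFN200 replicate 1 the highest sum without oxaliplatin was 1.27 CPM. Their reads were mostly of Tnnt2, with 15 to 47 reads without and 68 to 125 with oxaliplatin. Macrophage, fibroblast and heart muscle markers moved with Pvr, Clec2d and the other changes by oxaliplatin, and their part in the results was not tested. Fewer transcribing cells and less RNA per cell cannot be told apart in these bulk samples.

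**Figure D4:**
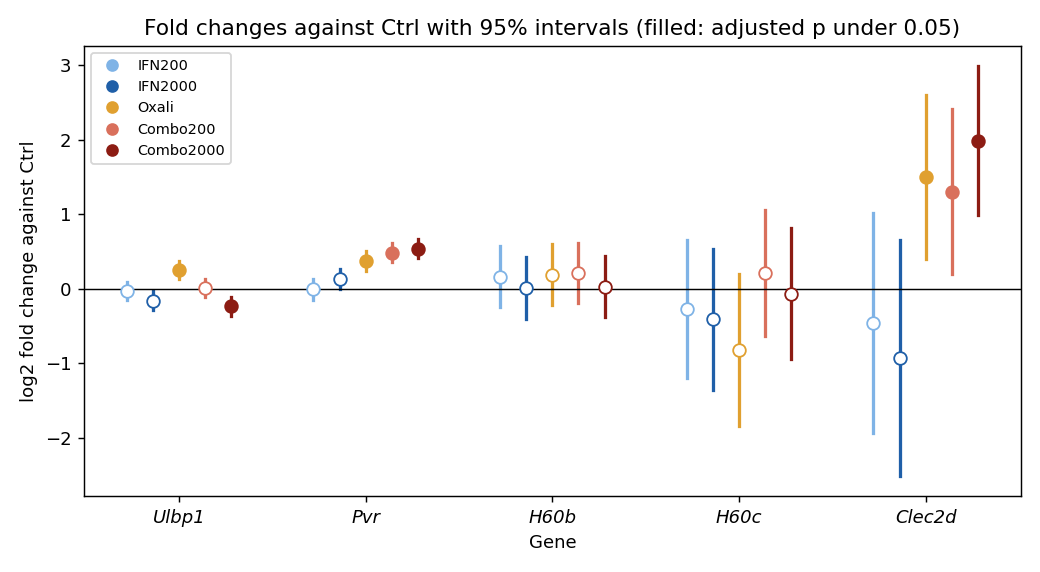
Log2 fold change against Ctrl for the 5 tested ligand genes in each treated group, with 95% intervals and filled points for edgeR adjusted p under 0.05. Pvr is above 0 in the 3 groups with oxaliplatin, Ulbp1 is above 0 in Oxali and below it in Combo2000, and the intervals of H60c and Clec2d are wide.

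The H60 genes encode ligands of NKG2D too. H60b was at 2.89 to 3.12 CPM in Ctrl (56 and 57 reads), at 3.22 and 3.63 CPM in Oxali, at 3.49 and 3.48 CPM in Combo200, and at 3.59 and 2.46 CPM in Combo2000. Combo2000 replicate 3 was the lowest of all libraries and Combo2000 replicate 2 the second highest, so that the groups overlap. Its log2 difference from Ctrl was 0.19 in Oxali (95% interval -0.22 to 0.60), 0.22 in Combo200 (-0.19 to 0.62) and 0.03 in Combo2000 (-0.38 to 0.44).

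H60c had 4 to 17 reads per library. It was at 0.389 and 0.760 CPM in Ctrl, at 0.184 and 0.477 CPM in Oxali and at 0.698 and 0.657 CPM in Combo200. Its log2 difference from Ctrl was -0.82 in Oxali (95% interval -1.84 to 0.20, edgeR adjusted p = 0.145). The value rested on single libraries: without Oxali replicate 2 it was -1.64 (edgeR adjusted p = 0.0474), without Oxali replicate 1 it was -0.28, and without Ctrl replicate 2 it was -0.24.

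Raet1e, a gene of the RAE-1 family of NKG2D ligands, had 0 and 1 reads in Ctrl, none with IFNγ at 200 pg alone and 2 and 0 at 2000 pg. Oxali had 2 and 2 reads, Combo200 had 3 and 2, and Combo2000 had 9 and 5. Every library with oxaliplatin had at least 2 reads, and 4 of the 6 without it had none. The sums were 23 reads with and 3 without oxaliplatin, a ratio of 6.99 after scaling (exact 95% interval 2.11 to 36.4, counting error only). Of the 23 reads 14 were in Combo2000, so the pooled ratio rests largely on that group. Combo2000 against Ctrl, 14 reads against 1, gave a ratio of 10.5 (1.60 to 445). Oxali against Ctrl, 4 reads against 1, gave 3.54 (0.3498 to 174), and Combo200, 5 reads against 1, gave 3.86 (0.4323 to 183). The intervals of Oxali and Combo200 include a ratio of 1, so a rise with oxaliplatin alone is not shown by these reads. Raet1d had 3 reads in all, 1 in Combo200 replicate 3 and 1 in each Combo2000 library, and 0 elsewhere, which allows up to 3 reads in each of those libraries.

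With no filter on low counts, edgeR gave Raet1e a log2 difference of 3.14 in Combo2000 against Ctrl (SE 1.28, adjusted p = 0.0417), the only call of a Raet1 gene in the 13 comparisons, and this fitted value depends on the prior count. The sum of Raet1d and Raet1e did not pass the filter either. Which of the 2 genes a read came from is uncertain, given the identity shown above.

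The level of Pvr across the 12 libraries was most like that of Dlx4os, Serpinb9 (an inhibitor of granzyme B) and Top2a (DNA topoisomerase II alpha), with Pearson r of 0.986, 0.983 and 0.981 of log2 CPM among 13176 other genes. Serpinb9 went from 54.4 ± 1.71 CPM in Ctrl to 98.7 ± 0.966 CPM in Oxali and 134.8 ± 8.04 CPM in Combo2000 (SD, n = 2). Ulbp1 was most like Abi2, a regulator of actin (0.895), Mprip (0.891) and Ankrd13c (0.860), and Clec2d like Sigirr (0.968), Krt42 (0.966) and Gnb4 (0.962). For H60b the first was Zfp275 (0.818) and for H60c it was Dmbt1 (0.885). Among the ligand genes Pvr and Clec2d had the highest r (0.842), Ulbp1 and H60b had 0.511, and Ulbp1 and Pvr had -0.01. These values describe 12 libraries that share treatments, sequencing depth and a scaling.

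The sequence before the start of Clec2d is shown because this gene had the largest fold change of the 5 tested. RefSeq promoter entries on GRCm38.p6 were matched for 5 of the 7 genes, with 2 starts for Raet1e, and the 250 bases before each start were searched on both strands for 8 motifs. These were GAS (TTCNNNGAA), the ISRE core (GAAA, then 2 bases of any kind, then GAAA), AP-1 (TGANTCA), CRE (TGACGTCA), the E-box (CACGTG), the GC box (GGGCGG), and the NF-kB consensus and p53 half-site by name. The window of Clec2d at chr6:129180365-129180614, plus strand, 5′ to 3′, held 1 match, in capitals, to the ISRE core, whose first base is 189 bases before the start.
Clec2d: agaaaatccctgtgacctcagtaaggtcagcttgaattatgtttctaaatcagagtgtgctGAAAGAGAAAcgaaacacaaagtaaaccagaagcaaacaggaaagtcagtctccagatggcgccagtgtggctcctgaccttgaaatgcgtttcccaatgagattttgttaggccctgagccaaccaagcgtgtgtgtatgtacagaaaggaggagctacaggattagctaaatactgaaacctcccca

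The ISRE core was in 2.98% of the 32851 promoter windows, and Clec2d was not called with IFNγ alone. The window of Ulbp1 (chr10:7473478-7473727) held no match to any of the 8 motifs. RefSeq and M21 starts differ for some genes. That window overlaps the M21 gene of Ulbp1, which begins at 7473638 on the minus strand. The window of Raet1d (chr10:22361644-22361893) lies inside its M21 gene, which begins at 22360552. The window of H60c held 1 p53 half-site (7.13% of windows), and those of Raet1d and both starts of Raet1e held only GC boxes (32.7% of windows). Of the 2 windows of Raet1e the one farther into the gene was 98.8% identical to that of Raet1d over 248 aligned bases, and the other 59.3%. A match is a match of letters and not a site shown to be used.

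Other ligands of NK cell receptors were read for comparison from a list of 17 genes. Of these 13 had a row and 7 were tested. In Oxali against Ctrl 5 were higher and 1 was lower, with a median log2 difference of 0.58 beside 0.02 over all tested genes. Of all tested genes 67.6% were called, 34.8% higher and 32.8% lower. Icam1, which is bound by the integrin LFA-1 of NK cells, rose by 2.48 on the log2 scale (SE 0.22, edgeR adjusted p = 7.07e-09), from 0.861 and 1.28 CPM in Ctrl to 5.67 and 6.25 CPM in Oxali. H2-T23, which encodes Qa-1, the ligand of the inhibitory receptor NKG2A, rose by 1.35, and Cd48, the ligand of 2B4, by 1.38 (4 reads in each Ctrl library, 13 and 11 in Oxali). Cd48 had 4 to 10 reads per library without oxaliplatin and 11 to 19 with it, near the filter's minimum count of 10. It entered the test through the groups with oxaliplatin, so its call, counted among the 5, is no support apart from these reads. Nectin1, which is bound by CD96, and Cadm1, which is bound by CRTAM, rose by 0.58 and 0.39. Clec2f, annotated as a transcribed pseudogene, was lower (-1.26), and Nectin2, another ligand of CD226 beside Pvr, was at -0.01 (adjusted p = 0.814).

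H2-T23 and Icam1 were also higher in Combo2000 than in Oxali, by 1.63 (SE 0.21, edgeR adjusted p = 2.64e-05) and 0.59 (SE 0.14, adjusted p = 0.0128), the 2 of 7 called there beside 4.36% of all genes (3.37% higher, 0.987% lower). H2-T23 was at 1.81 and 3.04 CPM in Oxali and at 7.04 and 8.06 CPM in Combo2000. The inhibitory ligand gene H2-T23 and the activating ligand gene Ulbp1 thus moved in opposite directions when IFNγ at 2000 pg was added to oxaliplatin. With IFNγ alone at 200 pg edgeR called 0 of the 7, beside 0.114% of all tested genes (0 at an unadjusted p under 0.05, 0 by DESeq2). At 2000 pg it called 0 of the 7, beside 16.9% (8.39% higher, 8.47% lower, 3 of the 7 at an unadjusted p under 0.05, 0 by DESeq2). H2-T23 was there at 1.04 (edgeR adjusted p = 0.0502) and was called under both other scalings. Its IFN2000 libraries lay apart, at 2.61 CPM in replicate 2, which held T cell reads, and 1.29 CPM in replicate 3. Ctrl was at 1.11 and 0.811 CPM. Reads of H2-T23 and Clec2f, members of large gene families, may be shared with paralogs.

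Genes that remove such ligands from the surface were read from a list of 6, of which 4 were tested. In Oxali against Ctrl Adam10, a metalloprotease that sheds NKG2D ligands, rose by 0.78 (SE 0.04, edgeR adjusted p = 1.67e-12), from 384 and 399 CPM to 668 and 676 CPM. Adam17, the related protease, and Pdia6, a disulphide isomerase, were lower by log2 differences of -0.44 and -0.62. March9, an E3 ubiquitin ligase that acts on MULT1, was not called, and Mmp14 and March4 did not pass the filter. The median over the 4 was -0.26, with 1 higher and 2 lower beside 67.6% of all tested genes called (34.8% higher, 32.8% lower).

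All 14 genes of damage signalling and of transcription factors tied to these ligands were tested, and 5 were higher and 5 lower in Oxali than in Ctrl, with a median of 0.08, beside 67.6% of all tested genes called (34.8% higher, 32.8% lower). Cdkn1a rose by 1.02, Mdm2 by 0.64 and Rela, an NF-kB subunit, by 0.37. E2f1 and Myc, transcription factors of proliferation, rose by 0.26 and 0.19. Lower were Sp1 (-0.69), the checkpoint kinase Chek2 (-0.42), Irf3 (-0.31), Tbk1 (-0.20) and the damage kinase Atm (-0.19). In Combo2000 against Ctrl 8 were higher and 3 lower, beside 69.2% of all tested genes called (35.7% higher, 33.5% lower). Atr, Chek1, Trp53 and Tmem173 were not called in Oxali.

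The receptors themselves were nearly absent. Of 13 receptor and adaptor genes only Tigit was tested, and the other 12 had 18 reads in all over the 12 libraries, with 6 of them at 0 in each. Tigit had 324 to 596 reads (17.1 to 25.2 CPM) in every library and was higher in Oxali than in Ctrl (log2 0.36, SE 0.09, edgeR adjusted p = 0.00158). Klrk1, which encodes NKG2D, had 1 read, and Cd226 had none.

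**Figure D5:**
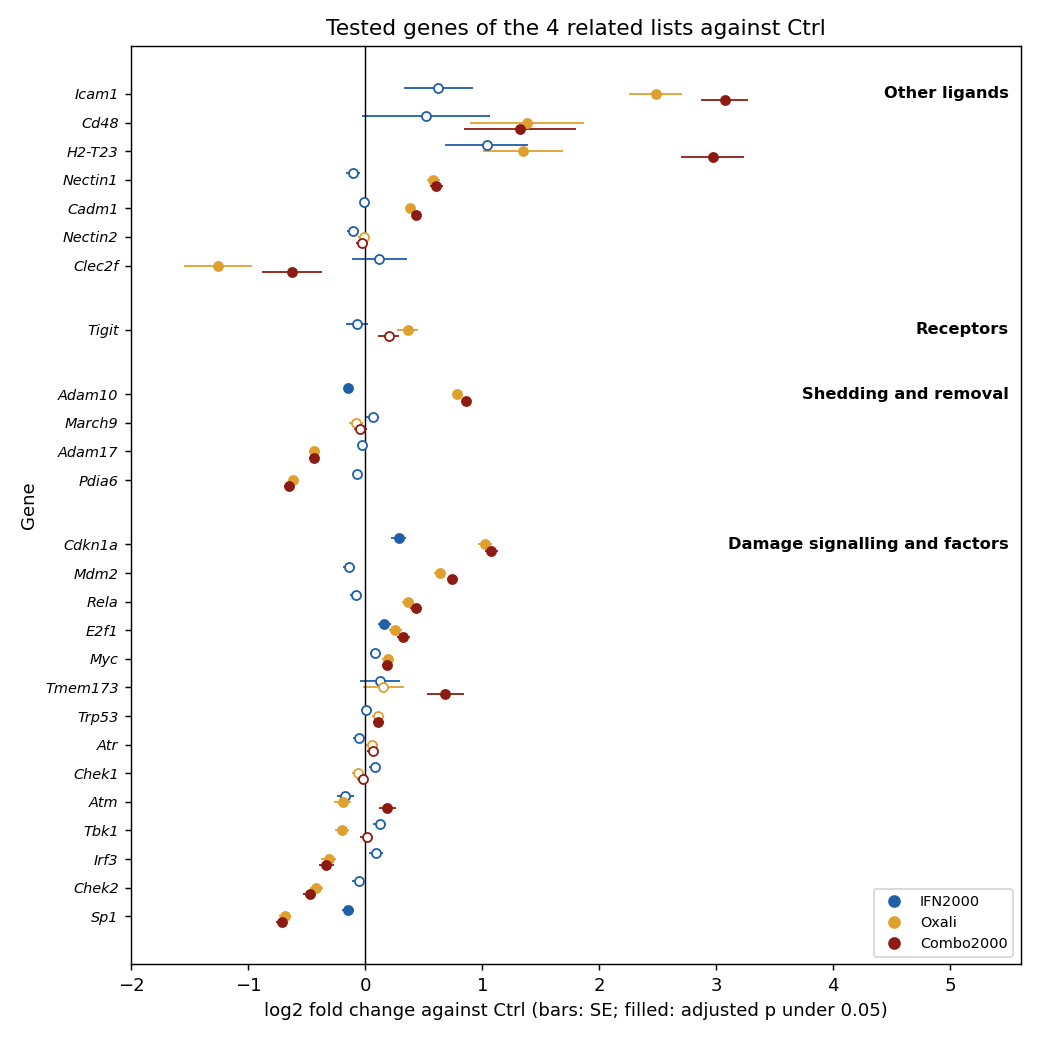
Log2 fold change against Ctrl of the tested genes of the 4 lists in IFN2000, Oxali and Combo2000, with SE bars and filled points for edgeR adjusted p under 0.05. Icam1 and H2-T23 have the largest values in Combo2000 (3.07 and 2.97), and Adam10 and Adam17 lie on opposite sides of 0 in both groups with oxaliplatin.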

How the data were processed

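The table deposited by the authors holds unnormalized read counts, 1 row per symbol and 1 column per library. RNA was poly(A)-selected and prepared with a stranded kit. STAR alignment to GRCm38, GENCODE models and featureCounts counting are stated in the methods, and the submitters' processing notes name STAR 2.7.3a and RSEM 1.3.0. The strand setting of the counting and the handling of reads that fit several genes are not given in the sources used here, so reads of Raet1d, Raet1e and H60b could be lost or split. All 12 columns were used.

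Libraries were grouped by title and scaled by TMM, and 13177 genes passed filterByExpr of edgeR 4.0.16 in R 4.3.3 (minimum count 10, minimum total 15). All libraries entered 1 quasi-likelihood model without covariates, because an exact permutation of 2 against 2 cannot go under p = 0.333. The study's methods name DESeq2, used here (1.42.0) as an alternative. SE is the log2 fold change divided by the root of F. The script was tested on simulated data. Between libraries of a group, chi-square per degree of freedom was 1.71 to 9.15, so none is a copy of another. Levels per kb use union exon lengths of GENCODE M21, a later release than the authors' on the same build. Likeness was Pearson r of log2 CPM with a prior count of 2, the 3 highest per gene.

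The members, the 4 related lists and the marker lists were chosen with earlier results of these data known. Named are all members, per list the 3 largest rises and 3 largest falls called in Oxali against Ctrl, and the 3 genes most alike each tested member. Other listed genes were named after their values were seen. Alternatives were median-ratio and upper-quartile scaling, DESeq2, no filter, a replicate block, only the groups compared, a length and GC correction (98.98% of tested genes had values), Raet1 reads summed, and each library left out. Some marker genes are not reported here.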

Additional observations from a re-analysis of the deposited data

Results flagged for a closer look

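The step made by IFNγ at 2000 pg differed with and without oxaliplatin for 3 genes of the members and lists, by the interaction test of edgeR, which called 2.72% of all tested genes. Ulbp1 had an interaction of -0.33 on the log2 scale (SE 0.08, adjusted p = 0.0325), with both Combo2000 libraries below both Oxali libraries. That call was lost with DESeq2 (adjusted p = 0.190), with only the groups compared (adjusted p = 0.068) and in 8 of the 12 fits that left out 1 library. Adam10 had 0.23 (SE 0.06, adjusted p = 0.0361), with a step of -0.14 without oxaliplatin, which was called, and of 0.08 with it, which was not. Atm had 0.55 (SE 0.10, adjusted p = 0.00445), with a step of 0.38 on top of oxaliplatin, which was called. Its step without oxaliplatin was -0.17 and was not called (edgeR adjusted p = 0.121). Replicates 2 and 3 of Atm were at 74.4 and 88.6 CPM in IFN2000 and at 112.5 and 96.0 CPM in Combo2000, so libraries of a group lay apart.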

How the results depend on the processing

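Of 273 counts of genes called under an alternative, 236 kept within 1.5 times the reported count and 37 moved. Of 1021 values of single ligand genes, 952 kept direction and side of the threshold, 40 lost the call, 3 gained one and 26 turned in sign, all among uncalled differences. The reported calls of Pvr, and those of Ulbp1 in Oxali and Combo2000 against Ctrl and in Combo2000 against Oxali, were kept throughout. The number of ligand genes called became 1 in Combo200 against Ctrl with DESeq2, no filter or the replicate block, and 1 in Combo200 against IFN200 with DESeq2. It became 0 in Combo200 against Oxali with DESeq2 or the replicate block, 0 in Combo2000 against Combo200 with DESeq2, and 0 for the interaction at 2000 pg with DESeq2, the replicate block or only the groups compared. With 1 library left out it ran from 2 to 3 in Oxali and in Combo2000 against Ctrl, from 1 to 2 in Combo200 against Ctrl and against IFN200, and from 0 to 1 in IFN2000 against Ctrl, Combo200 against Oxali, Combo2000 against Combo200 and the interaction at 2000 pg. The cause was not tested. Over all genes the count of calls moved by over 1.5 times with DESeq2 in IFN2000 against Ctrl (2221 to 1362), Combo200 and Combo2000 against Oxali (241 to 160 and 574 to 332), IFN2000 against IFN200 (2943 to 1877), Combo2000 against Combo200 (181 to 107) and the interaction at 2000 pg (359 to 199). The replicate block gave 1071, 142, 331 and 1588 in the first 4 of these and 48, from 92, for the interaction at 200 pg. With no filter the counts were 372 in Combo200 against Oxali and 262 and 785 for the interactions, and 102, from 15, in IFN200 against Ctrl, where only the groups compared gave 48 and the length and GC correction 28. The interaction counts were 172 at 200 pg with only the groups compared and 545 at 2000 pg with the length and GC correction.

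Replicate numbers gave 21 pairs of libraries, whose deviations correlated at -0.38 to 0.14 (median 0.03, 7 over 0.1), so the libraries share only a number. Under the replicate block Ulbp1 turned to -0.0123 and H60c to -0.10 in Combo200 against Ctrl. H60b in IFN2000 against Ctrl turned to -0.0759 with the length and GC correction, and the interaction of Pvr at 2000 pg to -0.000692 with upper-quartile scaling and to -0.04 without IFN200 replicate 1 and IFN2000 replicate 2.

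With 1 library left out, these uncalled log2 differences ranged across 0. Against Ctrl in IFN200 they were -0.0646 to 0.00321 for Ulbp1, -0.0550 to 0.0396 for Pvr, -1.09 to 0.57 for Clec2d and -0.65 to 0.31 for H60c. In IFN2000 they were -0.16 to 0.18 for H60b (0.19 without IFN200 replicate 1 and IFN2000 replicate 2), -0.78 to 0.18 for H60c and -2.11 to 0.11 for Clec2d. In Combo200 they were -0.0257 to 0.0426 for Ulbp1 and -0.18 to 0.78 for H60c, and in Combo2000 -0.29 to 0.26 for H60b and -0.45 to 0.51 for H60c. Clec2d ran from -1.66 to 0.17 in IFN2000 against IFN200 and from -0.77 to 0.89 for the interaction at 200 pg, and Pvr from -0.0430 to 0.11 for that at 2000 pg.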

Other observations

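Tigit, a receptor of T and NK cells, had 324 to 596 reads in each of the 12 libraries, while the other 12 receptor and adaptor genes of its list had at most 3 reads in any library. In the M21 annotation it spans chr16:43648867-43664146 with 919 exon bases and no exon shared with another gene. Tmem173, which encodes the DNA sensing adaptor STING, was called in Combo2000 against Ctrl (log2 0.68, SE 0.16, edgeR adjusted p = 0.000686), at 5.95 and 6.15 CPM against 3.29 and 4.28 CPM, while in Oxali it was at 3.96 and 4.42 CPM. Nectin4, another nectin, had 11 and 6 reads in Combo200, 4 and 3 in Combo2000 and at most 3 in any other library, and did not pass the filter. These genes were chosen after their values were seen.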
